A study of Mus musculus with 18 samples.

Results

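The integrated stress response and the unfolded protein response were followed through 37 genes of mouse cortical neuron cultures. The genes were chosen by name for their place in these pathways, with earlier results of these data known. They are 37 of the 43629 gene IDs in the count table. All 37 passed the filter on low counts, with 15671 genes tested in all. They took between 0.422% and 0.541% of the counts of a library.

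Both responses adjust protein synthesis under stress, the unfolded protein response to the folding capacity of the cell. Misfolded protein in the endoplasmic reticulum (ER) activates the sensors PERK, IRE1 and ATF6. PERK and the amino acid sensor GCN2 phosphorylate the translation factor eIF2, which slows translation in general but favours translation of the Atf4 message. ATF4 in turn activates genes of amino acid supply and of feedback, while ATF6 and the spliced form of XBP1 activate ER chaperones and the machinery that sends misfolded ER proteins to the proteasome. Blocking the proteasome is a known trigger of these responses, and in neurons a lasting response through ATF4 and CHOP, the product of Ddit3, is linked to cell death.

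The cultures fell into 3 groups of 6 libraries. Psmb5 cultures overexpressed a catalytic subunit of the constitutive proteasome, Psmb8 cultures overexpressed the subunit that takes its place in the immunoproteasome, and mSc cultures overexpressed the fluorescent protein mScarlet as the control. All 3 groups received lentivirus at 7 days in vitro and were harvested after 10 further days, so the control also carried a viral construct. For the promoter of the constructs, the mouse strain and the age of the donor animals, the labels give nothing. One protocol text of the labels names an Ifng construct for every sample, against the treatment tags and the design text, which name the 3 constructs above. The groups share replicate numbers 1 to 6. The labels say neither what a number stands for nor whether the libraries came from separate animals or dissections, so a p-value here is set by how much these libraries vary, and that variation may be technical.

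Library totals ranged from 16055974 to 19640543 counts in Psmb5, from 16091906 to 18630396 in Psmb8 and from 15337511 to 21074229 in mSc cultures. The smallest count of any member in any library was 77, for Sdf2l1. Values below are in CPM, counts scaled to a common library total. Psmb5 averaged 451 ± 113 CPM in Psmb5 cultures and 42.9 ± 1.49 CPM in mSc cultures, and Psmb8 averaged 887 ± 198 CPM in Psmb8 cultures and 6.28 ± 7.76 CPM in mSc cultures (SD, n = 6 each). The 8 neuronal markers were all expressed and summed to between 3585 and 4469 CPM in Psmb5, 3701 and 4641 CPM in Psmb8, and 3508 and 4581 CPM in mSc cultures. Of 8 microglial markers, 2 passed the filter, and the endothelial marker Cldn5 had no count. In bulk samples, fewer cells of a type and less RNA per cell cannot be told apart.

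Many of the members carry known response elements near their start, and the sequences are shown because members with the same element are compared below. RefSeq promoters of build GRCm38.p6, covering 250 bases before to 50 bases after the start, were at hand for 33 of the 37 members. These members had 36 promoters, and a member was counted once if any of its promoters matched. The share of all promoters counts each promoter, so the shares differ in unit. Both strands were searched, and the sequences are printed along the gene's own strand, so that a match on the opposite strand appears reverse-complemented. The ER stress response element (ERSE), spelled CCAAT, any 9 bases and CCACG, is bound by ATF6 together with NF-Y. It was found in Calr, Canx, Creld2, Dnajc3, Hsp90b1, Hspa5, Pdia6 and Syvn1, which are 24.2% of the members with a promoter, against 0.119% of all 32851 promoters. The matched letters are in capitals in these examples, each with 12 bases on either side.

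Hspa5 (chr2:34772013-34772055, plus strand): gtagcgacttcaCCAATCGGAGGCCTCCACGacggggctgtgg
Canx (chr11:50325788-50325830, minus strand): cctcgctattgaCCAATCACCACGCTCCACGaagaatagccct
Pdia6 (chr12:17266479-17266521, plus strand): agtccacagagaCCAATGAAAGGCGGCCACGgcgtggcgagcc
Dnajc3 (chr14:118937815-118937857, plus strand): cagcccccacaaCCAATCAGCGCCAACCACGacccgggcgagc
Hsp90b1 (chr10:86705626-86705668, minus strand): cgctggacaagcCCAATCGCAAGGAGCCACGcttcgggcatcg
Calr (chr8:84847063-84847105, minus strand): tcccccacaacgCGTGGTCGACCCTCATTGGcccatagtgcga
Creld2 (chr15:88819508-88819550, plus strand): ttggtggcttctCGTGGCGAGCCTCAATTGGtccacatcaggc

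A shorter relative, ERSE-II, spelled ATTGG, any base and CCACG, was found in Herpud1 alone among the members and in 0.0365% of all promoters. The element read by ATF4 with its C/EBP partners (CARE), searched as TGATGNAA, was found in Asns, Atf3, Chac1, Herpud1 and Trib3, which are 15.2% of the members with a promoter, against 3.97% of all promoters. A cyclic AMP response element, TGACGTCA, which reads the same on both strands, was found in Ppp1r15a and in 1.79% of all promoters. The element TGACGTGG, bound by XBP1 and ATF6, was in no member's window and in 0.676% of all promoters. Herpud1 held its matches at separate positions. A match is a description of these letters and was not tested for binding. A site outside the window or spelled otherwise would be missed.

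Herpud1, ERSE-II (chr8:94386365-94386399, plus strand): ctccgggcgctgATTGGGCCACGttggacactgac
Herpud1, CARE (chr8:94386305-94386336, plus strand): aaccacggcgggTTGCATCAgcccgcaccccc
Trib3, CARE (chr2:152344031-152344058, minus strand): attagctcaggtTTACATCAgccgggcg
Chac1, CARE (chr2:119351037-119351068, plus strand): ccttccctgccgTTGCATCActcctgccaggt
Atf3, CARE (chr1:191183424-191183455, minus strand): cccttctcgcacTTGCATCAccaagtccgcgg
Asns, CARE (chr6:7693213-7693244, minus strand): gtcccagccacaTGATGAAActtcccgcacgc
Ppp1r15a (chr7:45526261-45526292, minus strand): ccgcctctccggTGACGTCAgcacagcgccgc

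The first question was whether more of either proteasome subunit moved these stress genes. In Psmb5 cultures against mSc cultures, no member passed the threshold (0 of 37 at a Benjamini-Hochberg adjusted p over all genes, from edgeR), against 0.00638% of all genes called. In Psmb8 cultures against mSc cultures, no member passed without the replicate number in the model (0.00638% of all genes called). With the replicate number as a block, 1 member, Wfs1, was lower in Psmb8 cultures, against 0.211% of all genes called lower and 0.115% called higher. The 2 comparisons share the mSc libraries. Log2 fold changes and standard errors below are from the fit with the block unless stated.

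The members as a set lay close to mSc levels. The median log2 fold change of the 37 members was 0.027 in Psmb5 against mSc cultures, where the median over all genes was 0.0018, and 0.014 in Psmb8 against mSc cultures, where it was 0.00081. In the first comparison 25 members (67.6%) lay above 0, with 51% of all genes, and in the second 24 (64.9%), with 50.4% of all genes. The median rested on single numbers: in the fit with the block it was 0.0062 without the libraries numbered 1 and 0.0082 without those numbered 4 in Psmb5 against mSc cultures. In Psmb8 against mSc cultures it turned to -0.0053 without number 1 and -0.0045 without number 4, and was 0.062 without number 6. The median absolute log2 fold change of the members was 0.040 in Psmb5 against mSc cultures, with 0.054 over all genes, and 0.033 in Psmb8 against mSc cultures, with 0.061 over all genes. At an unadjusted p under 0.05, 5.41% of the members stood out in each comparison, against 6.87% of all genes in the first and 10.7% in the second. No member had CPM ranges that separated the 6 libraries of Psmb5 or Psmb8 cultures from the 6 of mSc cultures, where 0.0319% and 0.121% of all genes did. DESeq2 and limma-voom called no member in Psmb5 against mSc cultures, with or without the block.

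**Figure D1:**
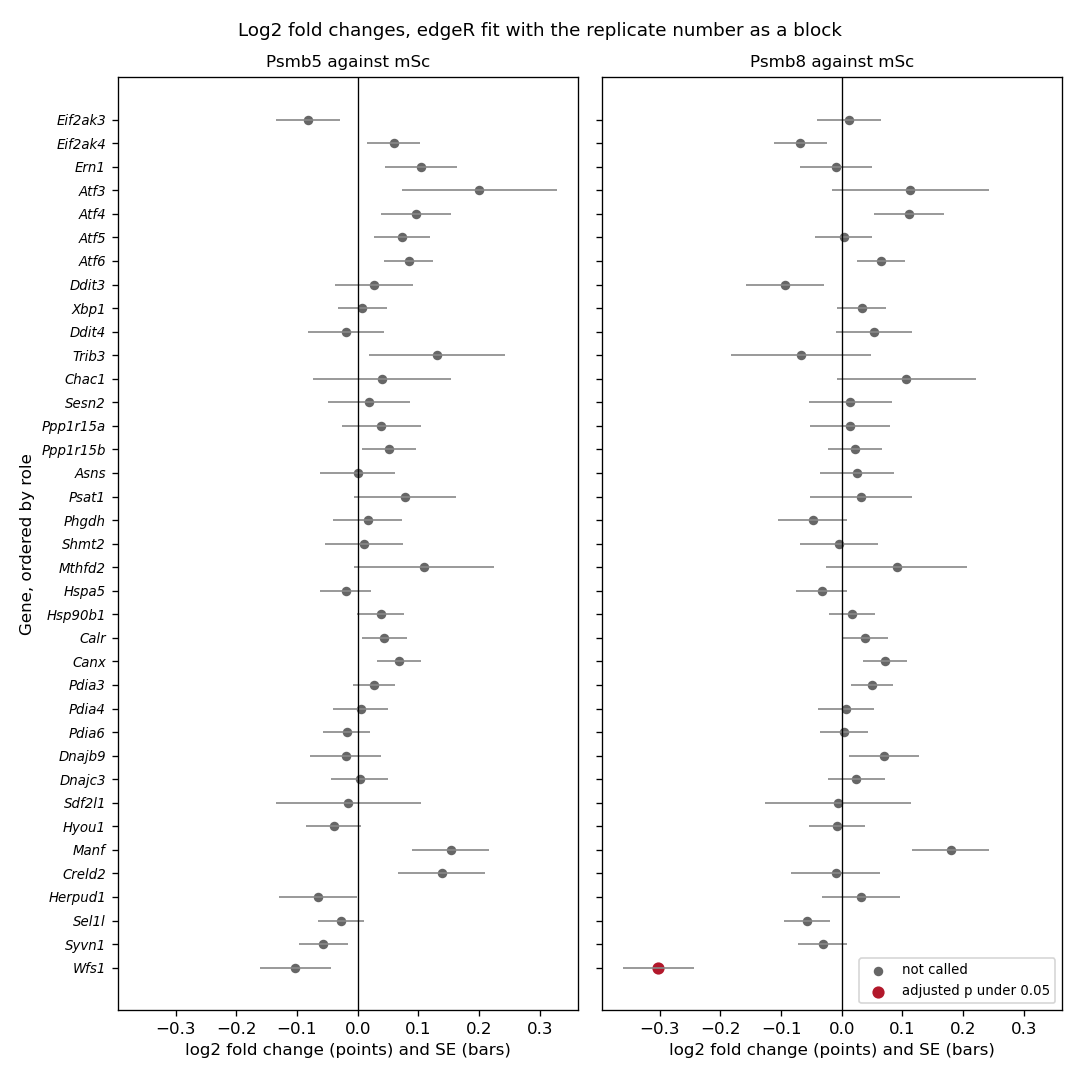
Log2 fold changes of the 37 members in Psmb5 against mSc cultures (left) and Psmb8 against mSc cultures (right), ordered by role down the page, from the edgeR fit with the replicate number as a block; points are fold changes and bars are 1 SE. All points but Wfs1 in Psmb8 cultures (log2 fold change -0.30) missed the adjusted threshold, and the members lie between -0.10 and 0.20 on the left and between -0.30 and 0.18 on the right.

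The sensors differed little between groups. Eif2ak3, which encodes PERK, ranged from 51.3 to 68.2 CPM in Psmb5 (median 63.0), from 59.6 to 77.0 CPM in Psmb8 (median 65.2) and from 59.1 to 74.1 CPM in mSc cultures (median 65.3). Its log2 fold change was -0.082 (SE 0.052) in Psmb5 and 0.012 (SE 0.052) in Psmb8 against mSc cultures. Ern1, which encodes IRE1, ranged from 19.7 to 30.3 CPM in Psmb5 (median 24.4), from 18.04 to 26.55 CPM in Psmb8 (median 22.7) and from 17.96 to 26.9 CPM in mSc cultures (median 22.2). The 3 groups overlapped for both genes. Eif2ak4, which encodes GCN2, ranged from 38.3 to 46.3 CPM in Psmb5 (median 43.2), from 36.4 to 41.5 CPM in Psmb8 (median 39.3) and from 35.1 to 46.4 CPM in mSc cultures (median 41.5). Psmb8 cultures held its narrowest range, inside that of mSc cultures.

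The 6 transcription factors also overlapped between groups. Atf4, the hub of the integrated stress response, ranged from 143 to 196 CPM in Psmb5 (median 187.5), from 139.9 to 233 CPM in Psmb8 (median 179) and from 108 to 196 CPM in mSc cultures (median 178). Its log2 fold change was 0.096 (SE 0.057, adjusted p = 0.793) in Psmb5 and 0.11 (SE 0.057, adjusted p = 0.512) in Psmb8 against mSc cultures. Of the same-numbered pairs, 5 of 6 were higher in Psmb5 and 3 of 6 in Psmb8 cultures. ATF4 is controlled mainly in translation, which transcript counts do not measure. Ddit3 ranged from 39.1 to 66.4 CPM in Psmb5 (median 57.1), from 35.5 to 60.5 CPM in Psmb8 (median 52.1) and from 32.96 to 67 CPM in mSc cultures (median 54.2). Its log2 fold change was 0.027 (SE 0.064) in Psmb5 and -0.094 (SE 0.065) in Psmb8 against mSc cultures, and the second changed sign without the libraries numbered 3 and 6 (0.040, adjusted p = 0.905). Ddit3 shares 68 exon bases with Mars on the opposite strand in GENCODE's annotation, and whether the counting used strand is not stated.

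Atf3, an early stress factor with a CARE match, was the most variable of the factors. It ranged from 8.32 to 22.1 CPM in Psmb5 (median 12.8), from 8.68 to 15.3 CPM in Psmb8 (median 13.2) and from 7.80 to 17.4 CPM in mSc cultures (median 10.9). Atf6, the membrane-bound sensor and factor, ranged from 68.4 to 92.8 CPM in Psmb5 (median 71.9), from 59.7 to 90.9 CPM in Psmb8 (median 76.2) and from 55.9 to 90.6 CPM in mSc cultures (median 71.0). Same-numbered pairs were higher for Atf6 in 5 of 6 for Psmb5 and 6 of 6 for Psmb8 cultures, yet the log2 fold changes of 0.084 (SE 0.040, adjusted p = 0.720) and 0.065 (SE 0.040, adjusted p = 0.603) were not called. Xbp1, the substrate of IRE1, ranged from 66.4 to 89.0 CPM in Psmb5 (median 79.0), from 72.4 to 85.35 CPM in Psmb8 (median 80.6) and from 63.5 to 93.0 CPM in mSc cultures (median 78.65). Splicing of Xbp1 was not analysed here, since a gene count joins both forms. Atf5, a relative of Atf4 that is translated under the same control, had log2 fold changes of 0.073 in Psmb5 and 0.0036 in Psmb8 against mSc cultures.

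Feedback genes limit or tune the response. Ppp1r15a, the stress-induced subunit of the eIF2 phosphatase, ranged from 44.1 to 83.3 CPM in Psmb5 (median 70.7), from 44.5 to 75.6 CPM in Psmb8 (median 69.9) and from 32.4 to 85.2 CPM in mSc cultures (median 70.6). Trib3, a pseudokinase that restrains ATF4 and CHOP, ranged from 9.21 to 21.5 CPM in Psmb5 (median 14.8), from 9.65 to 17.3 CPM in Psmb8 (median 12.7) and from 5.75 to 19.8 CPM in mSc cultures (median 13.6). Chac1, which degrades glutathione, ranged from 17.0 to 27.0 CPM in Psmb5 (median 22.6), from 18.6 to 35.1 CPM in Psmb8 (median 22.9) and from 13.3 to 27.1 CPM in mSc cultures (median 24.3). In all 3 genes the spread within a group exceeded the difference between groups. Sesn2 and Ddit4, which restrain the growth kinase mTORC1, and Ppp1r15b, the constitutive phosphatase subunit, had log2 fold changes between -0.019 and 0.053 in the comparisons with mSc cultures.

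The enzymes that supply asparagine, serine and folate-bound carbon units are known ATF4 targets. None of the 5 was called. Asns, asparagine synthetase, had a log2 fold change of -0.00019 (SE 0.061) in Psmb5 and 0.025 (SE 0.061) in Psmb8 against mSc cultures. Phgdh, which opens serine synthesis, ranged from 52.6 to 83.4 CPM in Psmb5 (median 58.55), from 49.1 to 83.25 CPM in Psmb8 (median 56.3) and from 53.0 to 94.2 CPM in mSc cultures (median 56.55). Psat1, the next enzyme of that path, had log2 fold changes of 0.078 (SE 0.084) in Psmb5 and 0.031 (SE 0.084) in Psmb8 cultures. For the mitochondrial folate enzymes Shmt2 and Mthfd2 they were 0.010 and 0.11 in Psmb5 cultures and -0.0048 and 0.090 in Psmb8 cultures, all against mSc cultures.

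The 11 ER chaperones and folding enzymes spanned nearly the whole range of levels, and none was called. Per base of exon, Calr stood highest of all members in mSc cultures at 158 ± 14.6 RPKM (SD, n = 6), followed by Hspa5 at 125 ± 19.0 and Canx at 104 ± 10.9 RPKM, and the ranges given by these SDs overlap between neighbours except Calr and Canx. Dnajb9, Dnajc3 and Sdf2l1, at 16.2, 8.98 and 6.34 RPKM in mSc cultures, stood among the lower members. Hspa5, the major ER chaperone BiP, ranged from 450.2 to 592 CPM in Psmb5 (median 507), from 469.6 to 561.5 CPM in Psmb8 (median 519.5) and from 439.6 to 641 CPM in mSc cultures (median 527). Its log2 fold change was -0.020 (SE 0.042, adjusted p = 0.956) in Psmb5 and -0.033 (SE 0.042, adjusted p = 0.838) in Psmb8 against mSc cultures. Canx, a lectin chaperone of the ER membrane, was higher in 6 of 6 same-numbered pairs in Psmb5 (log2 fold change 0.068, SE 0.036, adjusted p = 0.759) and in 5 of 6 in Psmb8 cultures (0.071, SE 0.036, adjusted p = 0.506), and was not called. Dnajb9, a co-chaperone of BiP, ranged from 27.8 to 49.5 CPM in Psmb5 (median 42.9), from 33.2 to 51.7 CPM in Psmb8 (median 44.6) and from 35.9 to 46.6 CPM in mSc cultures (median 40.9). Over the 11 genes the log2 fold changes lay between -0.040 and 0.068 in Psmb5 and between -0.033 and 0.071 in Psmb8 against mSc cultures. The 8 genes with an ERSE match lay between -0.057 and 0.14 in Psmb5 and between -0.033 and 0.071 in Psmb8 cultures, with none called, and the 5 with a CARE match between -0.065 and 0.20 and between -0.067 and 0.11.

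Manf and Creld2 encode small ER proteins that are released or retained under ER stress. Manf ranged from 31.2 to 39.4 CPM in Psmb5 (median 34.1), from 31.7 to 44.9 CPM in Psmb8 (median 33.7) and from 27.6 to 36.5 CPM in mSc cultures (median 30.5). It was higher in 5 of 6 same-numbered pairs in each overexpression group and lower in the pair numbered 6 in both. The log2 fold change was 0.15 (SE 0.063, adjusted p = 0.652) in Psmb5 and 0.18 (SE 0.063, adjusted p = 0.274) in Psmb8 against mSc cultures, and neither passed the adjusted threshold. Manf shares 146 exon bases with Dcaf1 on the opposite strand and 14 with Rbm15b on its own, so some of its counts may belong to neighbours. Creld2 ranged from 17.8 to 22.3 CPM in Psmb5 (median 18.9), from 14.6 to 19.3 CPM in Psmb8 (median 18.05) and from 12.99 to 20.8 CPM in mSc cultures (median 18.4).

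Genes of ER-associated degradation feed misfolded proteins to the proteasome. Herpud1, a scaffold of the ER ubiquitin ligase, ranged from 47.2 to 66.0 CPM in Psmb5 (median 57.25), from 54.3 to 68.8 CPM in Psmb8 (median 60.0) and from 45.95 to 67.9 CPM in mSc cultures (median 64.15). Sel1l, the partner of that ligase, ranged from 195 to 257 CPM in Psmb5 (median 245), from 193 to 261 CPM in Psmb8 (median 241) and from 198 to 265 CPM in mSc cultures (median 255). The groups overlapped throughout. The log2 fold changes of Herpud1, Sel1l and the ligase Syvn1 were -0.065, -0.027 and -0.057 in Psmb5 and 0.031, -0.058 and -0.031 in Psmb8 against mSc cultures, with none called.

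Wfs1 was the only member with a called difference in a comparison of groups, and only with the replicate number in the model. It encodes wolframin, an ER membrane protein whose loss causes Wolfram syndrome, in which neurons and insulin-producing cells degenerate. The gene (ENSMUSG00000039474) lies on chromosome 5, 36966104 to 36989205, minus strand, in GENCODE's annotation of GRCm38, and shares no exon base with another annotated gene. In numbers 1 to 6 it stood at 297, 207, 311, 298, 229 and 324 CPM in Psmb8 cultures, against 340.2, 239, 431, 439, 249 and 388 CPM in mSc cultures. Every Psmb8 library was lower than the mSc library of its number, while the groups as a whole overlapped. The means were 278 ± 47.8 CPM in Psmb8 and 348 ± 87.5 CPM in mSc cultures (SD, n = 6 each).

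Wfs1 fell by 18.9% in Psmb8 cultures, by a log2 fold change of -0.30 with SE 0.058 and adjusted p = 0.0231 in edgeR with the replicate number as a block. Without the block the estimate was -0.32 (SE 0.17, adjusted p = 0.9999). The blocked call was lost without the libraries numbered 3 (adjusted p = 0.164), 4 (0.0538) or 6 (0.0711) and held without those numbered 1 (0.0205), 2 (0.036) or 5 (0.0197). The differences by number were -0.20, -0.21, -0.47, -0.56, -0.12 and -0.26 on the log2 scale, so the libraries numbered 3 and 4 contributed the largest. In Psmb5 cultures Wfs1 stood at 294, 274, 358, 400, 221 and 382 CPM in numbers 1 to 6. This was below mSc in 5 of 6 pairs, its log2 change being -0.10 (SE 0.058, adjusted p = 0.772). Tested directly, Psmb8 cultures were lower than Psmb5 cultures, at -0.20 on the log2 scale (SE 0.058, adjusted p = 0.323), lower in 4 of 6 pairs and not called.

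**Figure D2:**
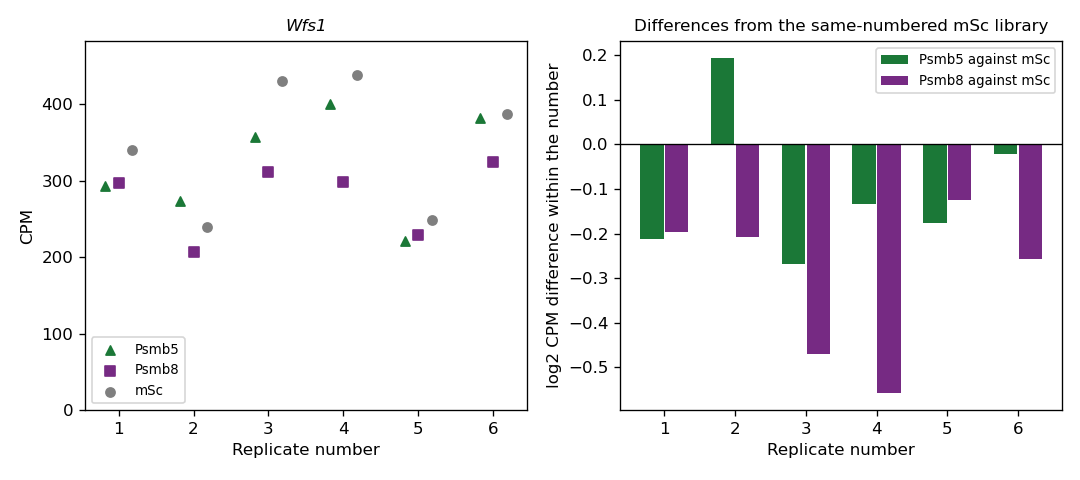
Left: Wfs1 in CPM in every library, by replicate number, for Psmb5, Psmb8 and mSc cultures. Right: log2 CPM difference from the mSc library of the same number; the 6 Psmb8 bars lie between -0.56 and -0.12, and the Psmb5 bar of number 2 is the only one above 0 (0.19).

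Single pairs moved in different directions. The median difference of the 37 members between Psmb8 and mSc libraries of the same number was 0.12 in number 1, -0.011 in number 2, -0.081 in number 3, 0.11 in number 4, 0.015 in number 5 and -0.13 in number 6 on the log2 scale. In number 1, 29 members were higher and 8 lower in the Psmb8 library, and 27 were higher and 10 lower in the Psmb5 library. In number 4 the counts were 27 higher and 10 lower for Psmb8 and 23 and 14 for Psmb5. In number 6 they ran the other way, with 6 higher and 31 lower for Psmb8 and 8 and 29 for Psmb5. Over all 12 pairs with mSc libraries, between 49% and 53.1% of the 11549 genes at a mean of at least 5 CPM were higher. In number 4, 7 members were more than 0.4 higher in the Psmb8 than in the mSc library and 1, Wfs1, as much lower, against 3.43% and 5% of these genes. They were Atf3, Chac1, Asns, Psat1, Shmt2, Mthfd2 and Sesn2. Chac1 stood at 35.1 CPM in that library, with 21.65 CPM in the Psmb5 and 18.4 CPM in the mSc library of number 4, and Mthfd2 at 32.9 CPM, with 21.1 and 17.95 CPM. In number 1, 6 members were that much higher in the Psmb5 than in the mSc library (Atf3, Atf4, Trib3, Mthfd2, Ppp1r15a and Creld2) and 0 lower, against 1.77% and 1.66% of genes. These 2 pairs held the most such members. In the other 10 pairs with mSc libraries 0 to 3 members were that much higher and 0 to 2 lower, where 0.788% to 2.79% of genes were higher and 0.745% to 2.69% lower. The step of 0.4 was chosen after the values were seen. A single pair has no replicate, and no member passed a step of 0.4 in every number, Wfs1 included.

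In Psmb8 against Psmb5 cultures no member was called (0 of 37 with or without the block, against 0.0128% of all genes without it and 0.0383% with it). The median log2 fold change of the members was -0.0049, and 17 lay above 0. DESeq2 and limma-voom called none either, and at an unadjusted p under 0.05 edgeR with the block gave 5.41% of the members, against 7.64% of all genes. Beside Wfs1, the smallest p was that of Eif2ak4, at -0.13 on the log2 scale (SE 0.044, adjusted p = 0.460) and lower values in Psmb8 cultures in 5 of 6 pairs. Creld2 followed at -0.15 (SE 0.072, adjusted p = 0.660), also lower in 5 of 6 pairs. No member had CPM ranges that separated the groups, against 0.0893% of all genes.

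Other genes of the same pathways were listed by function, and 80 of the 81 were tested. None was called in any of the 3 comparisons of groups, with or without the block. The list held 6 amino acid transporters, 12 aminoacyl-tRNA synthetases, 21 further integrated stress response genes, 21 genes of ER entry and folding, 14 of ER-associated degradation and 7 further ER stress factors. The median log2 fold change of the 80 was 0.022 in Psmb5 and 0.021 in Psmb8 against mSc cultures, with 54 above 0 in each. The smallest p in Psmb5 against mSc cultures belonged to the arginine transporter Slc7a3 (-0.18, SE 0.050, adjusted p = 0.526) and the tRNA synthetase Eprs (0.10, SE 0.039, adjusted p = 0.624). In Psmb8 against mSc cultures it belonged to the ER stress factor Creb3l2 (-0.29, SE 0.074, adjusted p = 0.107) and to Vcp, the ATPase that pulls ubiquitinated proteins from the ER (0.12, SE 0.032, adjusted p = 0.110). In Psmb8 against Psmb5 cultures they were Creb3l2 (-0.31, SE 0.074, adjusted p = 0.206) and the stress-induced regulator Nupr1 (-0.40, SE 0.12, adjusted p = 0.320).

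The replicate number separated the stress genes far more than the overexpressed subunit did. With group in the model, 36 of the 37 members differed between the numbers (97.3%; edgeR, adjusted p under 0.05), against 64.3% of all genes; Atf5 was the exception (adjusted p = 0.0568). Among genes at a mean of at least 5 CPM, 34 of the 37 members and 73.6% of genes were called. The highest number stood above the lowest by 1.12 times for Calr to 2.27 times for Trib3, with a median of 1.32 times over the members.

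**Figure D3:**
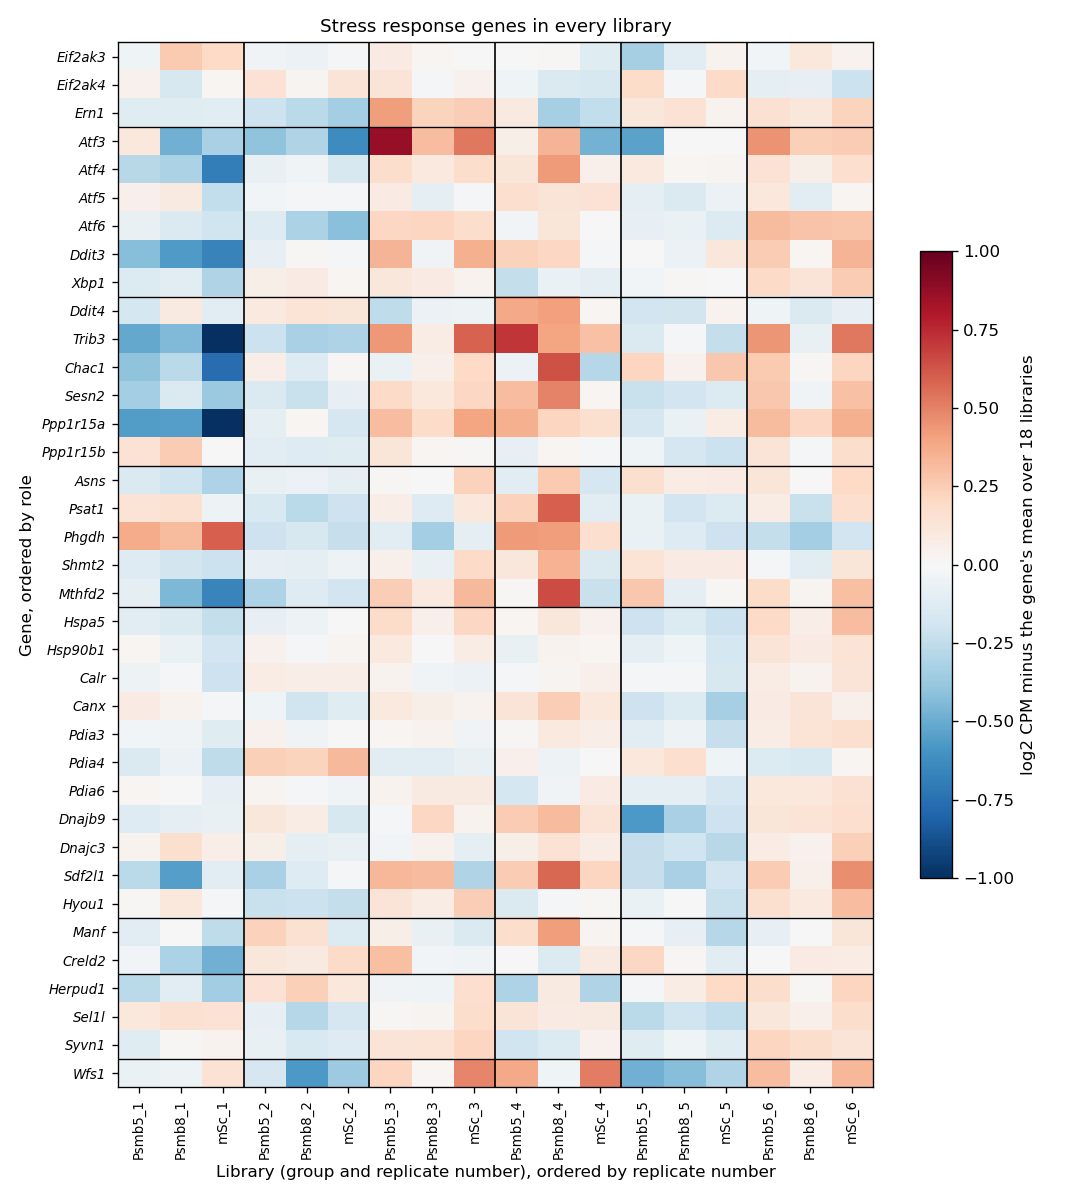
Log2 CPM of each member in each of the 18 libraries minus the member's mean over all libraries (colour scale cut at -1 and 1), with genes ordered by role and libraries by replicate number, Psmb5, Psmb8 and mSc within each number. Colours run in blocks of 3 libraries of the same number, such as the low Ppp1r15a, Ddit3 and Trib3 in number 1 and the low Wfs1 in numbers 2 and 5.

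Number 1 held the lowest values of many members, Ppp1r15a, Trib3 and Ddit3 first. Against the mean of the other numbers, 16 members were lower and 4 higher, where 14% of all genes were lower and 19.6% higher. Ppp1r15a stood at 44.1 CPM in the Psmb5, 44.5 in the Psmb8 and 32.4 in the mSc library of number 1, against 57.9 to 85.2 CPM in the other 15 libraries, a log2 difference of -0.83 (SE 0.078, adjusted p = 4.24e-08). Ddit3 stood at 39.1 CPM in the Psmb5, 35.5 in the Psmb8 and 32.96 in the mSc library, against 49.4 to 67 CPM elsewhere, a difference of -0.66 (SE 0.076, adjusted p = 6.98e-07). Neither gene's values in number 1 overlapped those of the other numbers. The share of all genes that separates a number in this way, here and below, was not counted. Atf4 stood at 143, 139.9 and 108 CPM in the Psmb5, Psmb8 and mSc libraries of number 1, against 156 to 233 CPM elsewhere, a difference of -0.51 (SE 0.066, adjusted p = 3.57e-06). Trib3 (-0.82), Chac1 (-0.57), Mthfd2 (-0.47), Sesn2 (-0.35), Creld2 (-0.32), Herpud1 (-0.29) and Asns (-0.26) were lower as well. So were Sdf2l1 (-0.38), Shmt2 (-0.22), Xbp1 (-0.21), Hspa5 (-0.20), Pdia4 (-0.18) and Atf6 (-0.17), while Atf3, Atf5, Ddit4 and Psat1 were not called. Beside Phgdh, Eif2ak3 (0.17), Sel1l (0.16) and Ppp1r15b (0.16) were higher. Of the 5 members with a CARE match, 4 were lower in number 1, with Atf3 at -0.27 not called, and of the 8 with an ERSE match, 2 were lower. Lower members with neither match in the window searched included Atf4, Ddit3, Mthfd2 and Sesn2, so lower values were not limited to members with a match there.

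Phgdh went the other way in number 1. It stood at 80.6 CPM in the Psmb5, 77.6 in the Psmb8 and 94.2 in the mSc library, and at 83.4, 83.25 and 69.9 CPM in those of number 4, against 49.1 to 59.3 CPM in the other 12 libraries. The log2 difference was 0.52 (SE 0.059, adjusted p = 7.13e-07) in number 1 and 0.41 (SE 0.060, adjusted p = 3.19e-05) in number 4. Phgdh is known to be abundant in astrocytes. The 10 astrocyte markers, all tested and none at 0, summed to 4374 CPM in the Psmb5, 4415 in the Psmb8 and 5214 in the mSc library of number 1. In the other numbers they summed to between 1620 and 2031 CPM in Psmb5, 1510 and 1714 CPM in Psmb8, and 1427 and 1774 CPM in mSc cultures. In number 4 they stood at 2031 CPM in the Psmb5, 1714 in the Psmb8 and 1774 in the mSc library, each the highest of its group after number 1. The 8 oligodendrocyte lineage markers were also highest in these numbers, summing to 744 to 948 CPM in number 1 and 707 to 1094 CPM in number 4. In the other numbers they summed to 235 to 659 CPM. The neuronal list (4469 to 4641 CPM) and the vascular and fibroblast list (35.8 to 43.2 CPM) were highest in number 1 as well. The part of any of these cell types in the differences of numbers 1 and 4 was not tested.

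In numbers 3 and 6 nearly all of the called members were higher. In number 6, 16 members were higher and 2 lower, where 14.1% of all genes were higher and 12.5% lower, and in number 3, 11 were higher and 1 lower, where 10.5% were higher and 9.44% lower. Atf6 stood at 92.8, 90.9 and 90.6 CPM in the Psmb5, Psmb8 and mSc libraries of number 6, above all 15 other libraries (55.9 to 86.5 CPM), a log2 difference of 0.35 (SE 0.043, adjusted p = 3.83e-06). Hspa5 stood at 592, 542.5 and 641 CPM in those libraries, a difference of 0.23 (SE 0.045, adjusted p = 7e-04). Xbp1 (0.23), Hyou1 (0.23), Syvn1 (0.21), Wfs1 (0.28), Ppp1r15a (0.35) and Trib3 (0.37) were also higher in number 6. In number 3 Atf3 was 0.68 higher (SE 0.13, adjusted p = 0.00082), with 22.1 CPM in the Psmb5, 14.9 in the Psmb8 and 17.4 in the mSc library, and Ern1 0.35 higher (SE 0.062, adjusted p = 0.000384). Of the 8 members with an ERSE match, 5 were higher in number 6 and 2 in number 3.

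Interferon-stimulated genes were high in the same libraries. The sum of 12 such genes, 11 of them tested and none at 0, was 403 CPM in the Psmb5, 306 in the Psmb8 and 491 in the mSc library of number 6, and 102, 106.5 and 177 CPM in those of number 3. Elsewhere it lay between 17.7 and 35.7 CPM in Psmb5, 11.9 and 37.4 CPM in Psmb8, and 21.3 and 29.6 CPM in mSc cultures. Other lists set these libraries apart too. The 8 oligodendrocyte lineage markers summed to 235 to 435 CPM in numbers 3 and 6 and to 558 to 1094 CPM in the other numbers. The 8 microglial markers, 2 of them tested, summed to 32.6 to 38.2 CPM in numbers 3 and 6 and to 17.1 to 30.3 CPM in the others. The part of interferon signalling or of these cell types in the differences of numbers 3 and 6 was not tested.

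**Figure D4:**
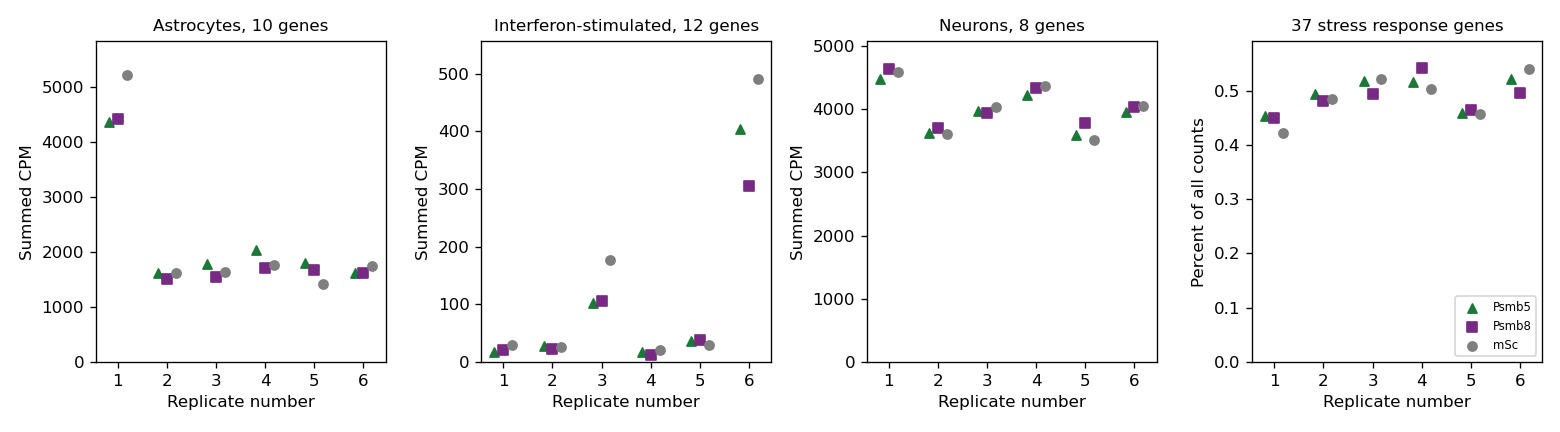
Summed CPM of the astrocyte, interferon-stimulated and neuronal lists, and the percent of all counts in the 37 members, by replicate number in Psmb5, Psmb8 and mSc cultures. Astrocyte markers stand at 4374 to 5214 CPM in number 1 and at 2031 CPM or less elsewhere, interferon-stimulated genes at 102 to 491 CPM in numbers 3 and 6 and at 37.4 CPM or less elsewhere, and the members take 0.422% to 0.541% of counts.

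In numbers 2 and 5 most of the called members were lower. In number 5, 11 members were lower and 1 higher, where 14.7% of all genes were lower and 12.3% higher, and 7 of the 11 ER chaperones and folding enzymes were among the lower. Dnajb9 stood at 27.8, 33.2 and 35.9 CPM in the Psmb5, Psmb8 and mSc libraries of number 5, below the 37.2 to 51.7 CPM of the other 15, a log2 difference of -0.43 (SE 0.066, adjusted p = 6.27e-05). Dnajc3 stood at 39.1, 40.2 and 38.2 CPM, against 43.1 to 54.4 CPM elsewhere (-0.29, SE 0.052, adjusted p = 0.000341). Both encode co-chaperones of BiP, and Hspa5 itself was lower by -0.22 (SE 0.046, adjusted p = 0.00127). Canx (-0.27), Sel1l (-0.28), Pdia3 (-0.15), Pdia6 (-0.14) and Hsp90b1 (-0.12) were also lower, as were Sesn2 (-0.23) and Ppp1r15b (-0.17), and Eif2ak4 was higher. Thus 5 of the 8 members with an ERSE match were lower in number 5 and none of the 5 with a CARE match was. Pdia3, Dnajb9 and Sel1l, lower in number 5 as well, had neither match.

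In number 2, 12 members were lower and 2 higher, where 17.5% of all genes were lower and 13.5% higher. They came from most roles: Atf3 (-0.55), Wfs1, Trib3 (-0.36), Atf6 (-0.34), Ern1 (-0.33), Hyou1 (-0.27), Psat1 (-0.26), Phgdh (-0.24), Sel1l (-0.21), Canx (-0.14), Ppp1r15b (-0.14) and Syvn1 (-0.14). Of the 11 ER chaperones and folding enzymes 2 were lower and 1 higher. Pdia4, a disulfide isomerase, was higher by 0.31 (SE 0.048, adjusted p = 4.78e-05) and Herpud1 by 0.19. Wfs1 was lower in both numbers, by -0.44 in number 2 and -0.48 in number 5. Its 6 libraries of these numbers lay between 207 and 274 CPM and the other 12 between 294 and 439 CPM. The 8 neuronal markers were also lowest in these numbers, at 3629 CPM in the Psmb5, 3701 in the Psmb8 and 3608 in the mSc library of number 2, and 3585, 3782 and 3508 CPM in those of number 5. In the other numbers they summed to between 3952 and 4469 CPM in Psmb5, 3946 and 4641 CPM in Psmb8, and 4038 and 4581 CPM in mSc cultures. Their part in the differences of numbers 2 and 5 was not tested.

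In number 4, 14 members were higher and 4 lower, where 17.7% of all genes were higher and 15.6% lower. Trib3 (0.55), Phgdh (0.41), Sesn2 (0.34), Ddit4 (0.33), Psat1 (0.31), Ppp1r15a (0.29), Atf4 (0.24) and Atf5 (0.17) were higher. So were the ER genes Sdf2l1 (0.41), Wfs1 (0.34), Dnajb9 (0.28), Manf (0.25), Canx (0.19) and Sel1l (0.12), while Xbp1 (-0.16), Ern1 (-0.19), Herpud1 (-0.20) and Eif2ak4 (-0.14) were lower. The 4 markers of cycling cells, all tested, were highest in sum in number 4 in each group, at 90.1 CPM in the Psmb5, 98.7 in the Psmb8 and 61.3 in the mSc library, against 12.7 to 56.3 CPM elsewhere, and their part was not tested. Psat1 stood at 111 CPM in the Psmb5, 143 in the Psmb8 and 87.8 in the mSc library of number 4, so the Psmb8 library stood apart from the mSc library of its number. Over the 6 numbers, 1 held the lowest mean of 15 members and 5 that of 13, and 4 held the highest mean of 12 members and 6 that of 11.

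**Figure D5:**
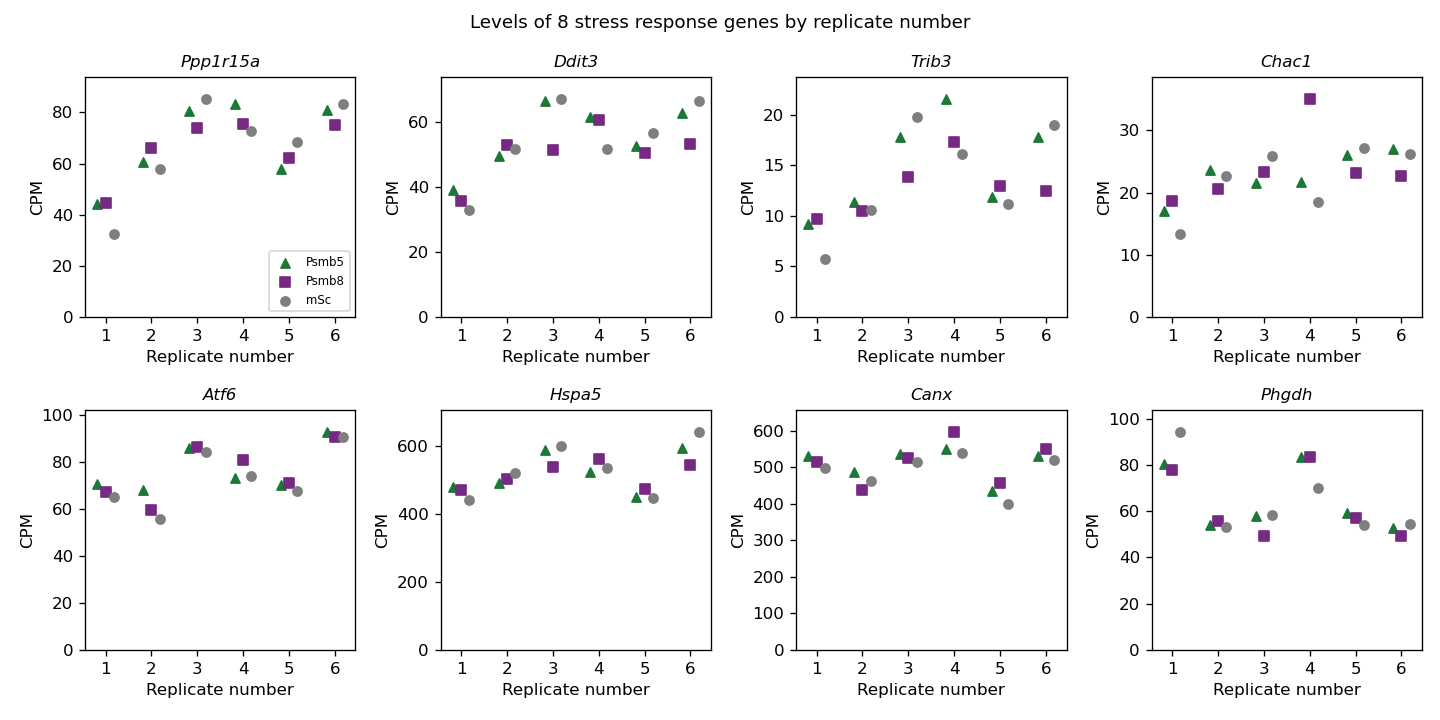
CPM of 8 members by replicate number, with a point for each Psmb5, Psmb8 and mSc library and axes that start at 0. Ppp1r15a, Ddit3 and Trib3 are lowest in number 1 in all 3 groups, Atf6 is highest in number 6 (90.6 to 92.8 CPM) and Phgdh is high in numbers 1 and 4.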

How the data were processed

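Poly(A) RNA from 18 mouse neuronal cultures was sequenced, per the labels' protocols. The authors deposited raw read counts per Ensembl gene, as whole numbers with 1 column per library. The submitters' processing notes name STAR 2.4, DESeq2, GRCm39 and mm10, with no role; the counter, its strand setting and its annotation are not named in these sources. By GENCODE's annotation of GRCm38, 13 of the 37 members share exon bases with another gene, 12 of them on the opposite strand.

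Of 43629 gene IDs, 42462 were matched to a symbol. The test was the quasi-likelihood test of edgeR 4.0.16, run in R 4.3.3 (filterByExpr by group, TMM scaling, all 18 libraries, group as the factor) with Benjamini-Hochberg adjustment over all 15671 genes and a threshold of 0.05. CPM refers to tested genes after TMM scaling, and RPKM to the summed exon length of GENCODE's annotation. Standard errors come from the F statistic. With the replicate number added, the numbers were tested together and each against the mean of the others. Counting error is larger for members with few counts, such as Sdf2l1, Trib3 and Atf3, with 77, 89 and 125 counts in their lowest libraries. No separate intervals for it were given.

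Whether the numbers pair the libraries was checked on deviations of log2 CPM from group means. All 18 same-numbered pairs correlated, r from 0.45 to 0.73 with a mean of 0.6. The 90 pairs with different numbers averaged -0.12 but ranged from -0.54 to 0.65, so the ranges overlapped. On the averages, the numbers were taken to pair the libraries and blocked values are given. Biological variation between libraries (edgeR's common coefficient) was 17.9% without and 5.94% with the block. Over the 45 library pairs within groups, the chi-square of counts per degree of freedom was 2.94 to 38.4, so none looked like a library deposited again.

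The members, the other gene lists and the tests were chosen with earlier results of these data known. All members may be named; values in the libraries are given for those with the smallest p in a comparison or between numbers and for usual readouts of the pathways. Other pathway genes are named for the 2 smallest p in each comparison. Alternatives were DESeq2 1.42.0, limma-voom (limma 3.58.1), other size factors, other filters, fewer groups, and numbers left out. The scripts were tested on simulated data. Promoters were missing for 4 members. Protein, phosphorylation and splicing were not analysed here.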

Additional observations from a re-analysis of the deposited data

Results flagged for a closer look

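Within each group of 6 libraries, the highest and lowest value of every member was compared with the nearest other value by Dixon's test at its 95% level. Of 111 groups of values, 3 stood out, where chance gives about 1 in 20. Chac1 in the Psmb8 library numbered 4 stood at 35.1 CPM, with the other 5 Psmb8 libraries at 18.6 to 23.3 CPM. Eif2ak3 in the Psmb5 library numbered 5 stood at 51.3 CPM, below the other 5 Psmb5 libraries at 62.7 to 68.2 CPM. Dnajc3 in the same library stood at 39.1 CPM, below the others at 45.4 to 48.5 CPM. For Dnajc3 the Psmb8 and mSc libraries numbered 5 were also low, at 40.2 and 38.2 CPM. For Chac1 the Psmb5 and mSc libraries numbered 4 were not high, at 21.65 and 18.4 CPM.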

How the results depend on the processing

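In Psmb5 against mSc and Psmb8 against Psmb5 cultures the count of members called was 0 under every alternative run. In Psmb8 against mSc cultures it was 0 without the replicate block under each alternative and 1, Wfs1, with the block in edgeR, DESeq2 and limma-voom; over the blocked fits that left out a number it ranged from 0 to 1. The log2 fold change of Wfs1 kept its sign throughout and had an adjusted p of 9.71e-05 in DESeq2 and 0.0179 in limma-voom with the block. With the block but without replicates 3 and 6, Ddit3 was 0.0401 in Psmb8 against mSc cultures. With all numbers it was -0.0939 with the block and -0.105 without it, and the cause was not tested. The block changed no other member's call. Over all genes, the count called in Psmb8 against mSc cultures was 1 without the block, 51 with it, 138 in DESeq2 and 62 in limma-voom with it, and 2 with the block but without replicates 3 and 6. It was 13 in Psmb5 against mSc and 26 in Psmb8 against Psmb5 cultures in DESeq2 with the block, against 1 and 6 in edgeR. Members called between numbers ranged from 26, without Psmb5 libraries, to 37. With the libraries of 1 group left out, the members called against the other numbers fell to 9 in number 2 (from 14) without Psmb5, to 6 in number 3 (from 12) without mSc and without Psmb5, to 8 and 11 in number 4 (from 18) without Psmb5 and without Psmb8, and to 9 and 10 in number 6 (from 18) without mSc and without Psmb5 libraries. They rose to 24 in number 6 and 13 in number 3 without Psmb8 and to 19 in number 4 without mSc libraries. In number 1 they fell to 16 (from 20) whichever group was left out, and the higher ones to 1 (from 4) without Psmb8 libraries. In number 5 they fell to 8 (from 12) without Psmb5 and to 10 without mSc libraries. Leaving out 1 number without the block, the median log2 fold change of the members ranged from 0.00285 to 0.0407 in Psmb5 against mSc, from -0.0102 to 0.0618 in Psmb8 against mSc and from -0.0471 to 0.0120 in Psmb8 against Psmb5 cultures, so its sign was not stable in the last 2.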

Other observations

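The other genes of these pathways also differed between replicate numbers: 70 of the 80 tested were called, against 64.3% of all genes. In number 1, where 14% of all genes were lower, 9 of 12 tRNA synthetases and 11 of 20 further integrated stress response genes were lower. Their medians were -0.19 for both lists on the log2 scale, and 2 of 21 genes of ER entry and folding were lower. In number 5, where 14.7% of all genes were lower, 15 of those 21 genes and 9 of 14 genes of ER-associated degradation were lower. Their medians were -0.18, and no tRNA synthetase was lower. In number 4, where 17.7% of all genes were higher, 12 of the 21 genes of ER entry and folding were higher. So were 9 of the 20 further stress response genes.

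A few single genes were chosen after their values were seen, and the first 3 moved more than any member. The secreted stress factor Gdf15 was 1.89 higher in number 4 on the log2 scale (adjusted p = 1.27e-07) and the cystine transporter Slc7a11 1.41 higher (adjusted p = 3.27e-07). Nupr1 was 1.20 higher in number 4 (adjusted p = 1.92e-07) and 1.20 lower in number 1, a log2 difference of -1.20 (adjusted p = 1.94e-06). Slc7a3 ran opposite to most stress genes, with log2 differences of 0.56 in number 1, -0.76 in number 3 and -0.83 in number 6.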
